A study of Rattus norvegicus with 12 samples.

Results

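The cytosolic ribosomal protein genes were examined in the liver of Long Evans Cinnamon (LEC) rats and Long Evans Agouti (LEA) controls, whose RNA was measured on 12 Affymetrix rat expression arrays. Genes were taken where a probe set carried a single gene symbol of the form Rpl or Rps followed by a number, with at most 1 letter and 1 further digit, or the symbol Rplp0, Rplp1, Rplp2 or Rpsa, and where a gene had several such probe sets the one with the highest mean over the 12 arrays was used. This gave 48 genes of 14217 with a single-symbol probe set, 15 named for the small ribosomal subunit and 33 for the large. Of these, 42 are conventional ribosomal proteins and 6 carry the name of a paralog, a related copy of a conventional gene (Rpl26l1, Rpl39l1, Rpl3l, Rpl7l1, Rps27l and Rps4y2).

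The groups were 4 arrays of LEC liver tumor at 67 weeks, 4 arrays of LEC nontumor liver at 67 weeks, 1 array of LEA liver at 67 weeks, and 1 array each of LEC liver at 4, 26 and 39 weeks. LEC rats lack a functional Atp7b copper transporter, so that hepatic copper builds up and hepatitis is followed by liver tumors, and LEA is the related strain without this defect. The tumors arose spontaneously, all animals are labelled male and were kept pathogen-free, and no drug is named for any group. Each tumor or nontumor array held mixed RNA of 2 of 8 paired specimens, and the other arrays also held pooled RNA, so an array is a pool and not an animal. The labels do not say that the pools came from different rats, and p-values therefore measure only the spread between these arrays, which may be partly technical.

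Ribosomal proteins bind the ribosomal RNAs to form the small subunit, which decodes the mRNA, and the large subunit, which joins amino acids. Their mRNAs are among the most abundant of a cell and are made in step with ribosomal RNA during growth. Most of them begin with a run of pyrimidines next to the cap, the 5′ terminal oligopyrimidine (TOP) tract, through which the mTOR pathway controls their translation, and the liver uses ribosomes heavily to make plasma proteins.

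Levels are log2 values, so a difference of 1 is a doubling, and a level is compared only with that of the same probe set on other arrays. The highest value on an array lay between 14.32 and 14.59. The 27 probe sets for absent bacterial RNA reached at most 5.52 to 6.22. In all, 4 members (Rpl28, Rpl3l, Rpl30 and Rps4y2) lay at or below that maximum on at least 1 array. Ribosomal protein genes have many processed pseudogenes, and signal from near-identical copies cannot be separated on these arrays. Xist, expressed from the inactive X chromosome, lay between 11.36 and 13.12 on 10 arrays labelled male, with the Y-linked Eif2s3y between 3.65 and 3.81. On the arrays at 26 and 39 weeks Xist was 5.27 and 5.67 and Eif2s3y was 8.90 and 8.18, so every tested comparison lay among the 10 arrays of the first kind.

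In tumor, 40 of the 48 genes were higher than in nontumor liver, 0 were lower and 8 did not pass the test (limma, adjusted p under 0.05 over all probe sets). Of all 31042 probe sets tested, 31.7% were higher and 32.2% lower by the same rule. Over the 14217 genes, each by its highest-mean probe set, the shares were 38.8% and 29.2%. The median tumor minus nontumor difference of the 48 genes was 0.71 on the log2 scale, a 1.63-fold level, against -0.04 over all probe sets and 0.07 over all 14217 genes. Called differences ran from 0.40 for Rps29 (1.32-fold, adjusted p = 0.000867) to 1.32 for Rps4y2 (2.5-fold, adjusted p = 0.021), and 5 genes reached a full log2 unit, as 11.0% of all probe sets did. In 39 genes every tumor array lay above every nontumor array, against 29.4% of all probe sets, and in 39 every tumor array lay above all 8 other arrays, against 24.3%. Among the 14217 genes this was so in 5138 and in 4387. In bulk tissue, fewer cells of a type and less RNA per cell cannot be told apart, and this holds for each difference below.

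The rise was shared by both subunits and was nearly the same on every array of a group. Among conventional genes, 12 of 13 of the small subunit rose with a median difference of 0.78, and 27 of 29 of the large subunit rose with a median difference of 0.73. The median level over the 42 conventional genes was 13.44, 13.50, 13.40 and 13.56 on the 4 tumor arrays, against 12.75, 12.78, 12.70 and 12.70 on the 4 nontumor arrays. The LEA array stood at 12.70 and the LEC arrays at 4, 26 and 39 weeks at 12.38, 12.56 and 12.61, so the 4 tumor arrays were the highest of the 12. Single genes varied little among arrays of a group, with a median SD over the conventional genes of 0.07 in tumor and 0.05 in nontumor liver.

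**Figure D1:**
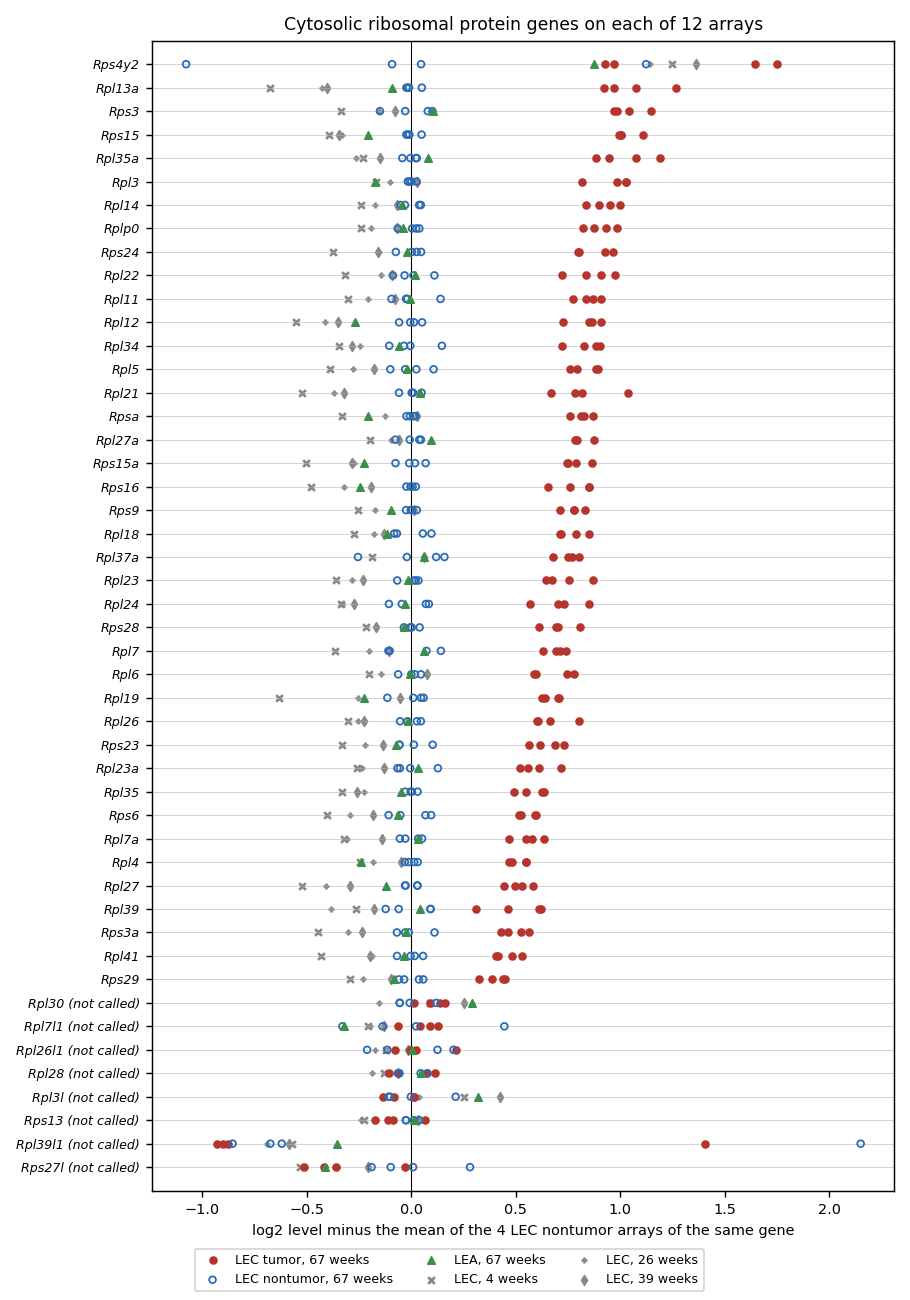
Each row is 1 of the 48 genes and each point 1 of the 12 arrays, plotted as the log2 level minus the mean of the 4 LEC nontumor arrays of that gene, with rows ordered by the tumor minus nontumor difference. Tumor points (filled circles) lie to the right of all others in 39 rows, and the 8 genes not called stand at the bottom.

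The start sites of the 10 genes with the largest rises between groups that did not overlap are shown, then those of Rpl39 and 3 paralogs, since the TOP tract is the feature these mRNAs are known to share. Each line runs 5′ to 3′ on the gene's strand from 15 bases before to 15 bases after the annotated start in RefSeq (GRCr8), and the capitals mark the motif CTTTC or either of its relatives, CTTTT and CTTCC, with overlapping matches joined.
Rpl13a, chr1:104748899-104748928, minus strand: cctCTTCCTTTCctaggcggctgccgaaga
Rps3, chr1:163195762-163195791, minus strand: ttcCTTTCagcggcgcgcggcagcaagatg
Rps15, chr7:10068101-10068130, minus strand: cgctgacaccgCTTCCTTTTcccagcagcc
Rpl35a, chr11:81235007-81235036, minus strand: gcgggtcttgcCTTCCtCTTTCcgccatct
Rpl3, chr7:113507976-113508005, minus strand: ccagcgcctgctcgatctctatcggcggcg
Rpl14, chr8:129163605-129163634, plus strand: gggcgggccctctcccttctcgctgagcgc
Rplp0, chr12:46718376-46718405, minus strand: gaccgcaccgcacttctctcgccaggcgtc
Rps24, chr16:96502-96531, plus strand: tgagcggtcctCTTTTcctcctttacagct
Rpl22, chr5:168117946-168117975, plus strand: gtagtgcgcccccctccCTTTCtgcctcct
Rpl11, chr5:153560788-153560817, minus strand: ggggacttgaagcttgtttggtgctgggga
Rpl39, chrX:121195882-121195911, minus strand: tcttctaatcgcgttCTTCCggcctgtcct
Rpl39l1, chr10:5966607-5966636, minus strand: actgccaggccgtcccgctatcctggtgtg
Rpl3l, chr10:14258431-14258460, plus strand: gacctctggtgcctggtggggaggtccctt
Rps4y2, chr4:183000898-183000927, plus strand: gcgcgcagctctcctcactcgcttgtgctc
In Rps15, Rpl35a, Rps24, Rpl22 and Rpl39 the pyrimidine run spans the annotated start. In Rpl13a it lies just before the start, and in Rps3 further before it. Of the 10 genes 6 hold a motif, and Rpl3, Rpl14, Rplp0 and Rpl11 hold none. Rpl14 and Rplp0 still have a pyrimidine run across the start, and Rpl3 has a short one from the start on. The paralogs Rpl39l1, Rpl3l and Rps4y2 hold no motif either. In Rps4y2 a pyrimidine run ends on the start base, and in Rpl39l1 a shorter one does.

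RefSeq start windows were matched for 41 of the 48 genes, 35 of them conventional. One of the 3 motifs occurred on the gene strand within these 30 bases in 21 of 41 (51.2%), against 12.4% of all 33469 promoters in the table. All 21 were conventional genes, of which 20 rose in tumor with a median difference of 0.82. Of the 14 conventional genes without a match 13 rose, with a median difference of 0.71. None of the 6 paralogs had a match, and 1 of them rose. The annotated first base was C in 16 of 41 (39.0%), against 24.1% of all promoters, and an annotated start can lie some bases or more from the one used. A single annotated start per gene was taken, and in some genes, among them Rpl11, Rpl22 and Rps24, it lies well inside the annotated gene. The Rpl22 window begins at 168117946, in a gene annotated from 168114432.

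Other letters were counted on either strand over the 300 bases from 250 before to 50 after the start. CCGGAAG, the core bound by ETS-family factors, occurred in 10 of 41 promoters (24.4%, against 8.75% of all promoters), among them Rpl11, Rpl34, Rpl35 and Rpl39. AAGATGGC, the core bound by Yy1, occurred in 4 (9.76%, against 3.17%), which were Rpl13a, Rpl21, Rpl35a and Rps3. CTCGCGAG, the core of the palindrome bound by Zbtb33, occurred in 5 (12.2%, against 0.723%), which were Rpl26, Rpl27a, Rpl4, Rps28 and Rps6. TATAAA occurred in 6 (14.6%, against 14.2%), a share near that of all promoters. Some of these matches share letters with the motif CTTCC, read on the other strand. This was so for CCGGAAG in Rpl34 and Rpl39 and for AAGATGGC in Rpl21, so these letters were counted under both. All these matches describe letters in a window and not binding.

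Among small-subunit genes, Rps15, a protein of the subunit head near the decoding site, had levels of 13.36, 13.37, 13.37 and 13.48 on the tumor arrays, against 12.35, 12.42, 12.34 and 12.36 on the nontumor arrays. The groups did not overlap, and the difference of 1.03 ± 0.06 (SE, 4 arrays each, adjusted p = 4.64e-06) had the smallest p among the 48 genes. Rps3, which lines the mRNA entry channel and also takes part in DNA repair, had levels of 13.61, 13.78, 13.60 and 13.67 in tumor, against 12.73, 12.71, 12.60 and 12.48 in nontumor liver. All 4 tumor values were higher by more than the spread within either group, with a difference of 1.04 ± 0.08 (SE, adjusted p = 1.56e-05).

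Rps24, needed to mature the RNA of the small subunit, had levels of 13.57, 13.70, 13.57 and 13.74 in tumor, against 12.80, 12.77, 12.70 and 12.82 in nontumor liver, a rise of 0.87. Rpsa, also known as the laminin receptor, had levels of 13.34, 13.39, 13.29 and 13.35 in tumor, against 12.55, 12.52, 12.50 and 12.54 in nontumor liver, a rise of 0.82. Rps6, the substrate of the S6 kinases downstream of mTOR, had levels of 13.83, 13.90, 13.82 and 13.90 in tumor, against 13.38, 13.40, 13.20 and 13.25 in nontumor liver. Its groups did not overlap, and its rise of 0.56 ± 0.07 (SE, adjusted p = 0.000224) was among the smaller ones.

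In the large subunit, Rpl13a, which in human cells can leave the ribosome and silence inflammatory mRNAs, had levels of 12.99, 13.04, 13.14 and 13.34 on the tumor arrays, against 12.06, 12.12, 12.04 and 12.05 on the nontumor arrays. The tumor values were spread more widely than the nontumor values, and all of them were higher, with a difference of 1.06 ± 0.09 (SE, adjusted p = 1.82e-05). Rpl35a, mutated in some human patients with Diamond-Blackfan anaemia, had levels of 12.76, 12.95, 12.82 and 13.07 in tumor, against 11.90, 11.90, 11.87 and 11.83 in nontumor liver, a rise of 1.02. Rpl3, which reaches the peptidyl transferase centre where peptide bonds form, had levels of 13.85, 13.90, 13.69 and 13.90 in tumor, against 12.85, 12.87, 12.89 and 12.86 in nontumor liver. For Rpl3 too the groups were well apart, with a difference of 0.96 ± 0.07 (SE, adjusted p = 1.14e-05).

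Rpl14 rose by 0.92, with tumor values of 12.47 to 12.64 against nontumor values of 11.58 to 11.68. Rplp0, the base of the stalk that recruits translation factors, rose by 0.90, with tumor values of 13.30 to 13.46 against nontumor values of 12.42 to 12.52. Rpl22, which is dispensable for growth of mice but needed for their T cell development, rose by 0.86, with tumor values of 13.26 to 13.51 against nontumor values of 12.45 to 12.65. None of these 3 genes overlapped between the groups.

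Rpl5 and Rpl11 form a particle with the smallest ribosomal RNA and, when free, bind and inhibit Mdm2, the ligase that degrades p53. Rpl11 had levels of 13.58, 13.62, 13.52 and 13.66 in tumor, against 12.73, 12.89, 12.72 and 12.65 in nontumor liver, a difference of 0.85 ± 0.07 (SE, adjusted p = 2.66e-05). Rpl5 rose by 0.83, with levels of 13.73, 13.82, 13.69 and 13.83 in tumor, against 12.96, 13.04, 12.90 and 12.83 in nontumor liver. Both thus rose by about the same amount without overlap. Mdm2 itself differed by -0.32 (adjusted p = 0.115) and Cdkn1a, the p53 target that halts the cell cycle, by -0.53 (adjusted p = 0.0862), and neither passed the test.

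Rpl39, a short protein of the exit tunnel, and Rpl7 were compared with their paralogs. Rpl39 had levels of 8.87, 9.17, 9.02 and 9.18 in tumor, against 8.65, 8.65, 8.44 and 8.50 in nontumor liver, a rise of 0.50 (adjusted p = 0.00177) that was lost after quantile normalization was run again (0.20, adjusted p = 0.0623). Rpl7 had levels of 13.42, 13.44, 13.36 and 13.47 in tumor, against 12.80, 12.87, 12.62 and 12.62 in nontumor liver, a rise of 0.69. The 2 genes did not overlap between groups.

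Among the paralogs with a single-symbol probe set 1 of 6 was called, and their median difference was -0.00, against 0.74 over the 42 conventional genes. A probe set listing only Rpl22l1, Rpl22l2 and Rpl22l3, and so not among the 6, rose by 0.80 without overlap (limma, adjusted p = 0.000217). Of the probe sets listing only Rpl37-like symbols, the brighter rose by 0.54. The other lay at or below the absent-RNA maximum on 12 arrays and was not called. Rpl39l1 had levels of 6.20, 6.23, 6.25 and 8.54 in tumor, against 9.28, 6.28, 6.51 and 6.46 in nontumor liver, and the mean difference of -0.33 (adjusted p = 0.722) became 0.39 without the first nontumor array. One array in each group stood more than 2 log2 units above the others of that group, and the remaining 10 arrays lay between 6.20 and 6.78. Rpl3l, a muscle form of Rpl3 in human and mouse, differed by -0.05 (adjusted p = 0.656) at levels no higher than the absent-RNA maximum on all 12 arrays.

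Rpl26l1 differed by 0.04 (adjusted p = 0.769), with tumor values of 6.95 to 7.25 within the nontumor range on 3 of 4 arrays, whereas Rpl26 rose by 0.67. Rpl7l1, related to a factor of large-subunit assembly, had levels of 10.68, 10.76, 10.58 and 10.72 in tumor, against 10.66, 10.50, 10.31 and 11.08 in nontumor liver. The nontumor values of Rpl7l1 surrounded the tumor values, and the difference was 0.05 (adjusted p = 0.789).

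Rps27l, a paralog of Rps27 that p53 induces in human cells, had levels of 8.73, 8.63, 9.12 and 8.79 in tumor, against 9.05, 9.43, 9.15 and 8.96 in nontumor liver. The groups overlapped through the third tumor array, and the difference of -0.33 missed the threshold (adjusted p = 0.0552). It passed as lower in tumor without that array (-0.43, adjusted p = 0.0151), without the fourth nontumor array (-0.39, adjusted p = 0.039), and under both other scalings (-0.62 and -0.43). Rps4y2, on chromosome 4 in GRCr8 though its human namesake is Y-linked, had levels of 7.87, 8.65, 7.83 and 8.55 in tumor, against 6.81, 8.03, 6.95 and 5.82 in nontumor liver. Its rise of 1.32 ± 0.42 (SE, adjusted p = 0.021) had overlapping groups and was lost without the second tumor array (1.18, adjusted p = 0.0585) or the fourth (1.21, adjusted p = 0.0528). Its LEA level of 7.78 and its levels at 4, 26 and 39 weeks of 8.15, 8.05 and 8.26 lay within or near the tumor range, and the fourth nontumor array was at the absent-RNA level.

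**Figure D2:**
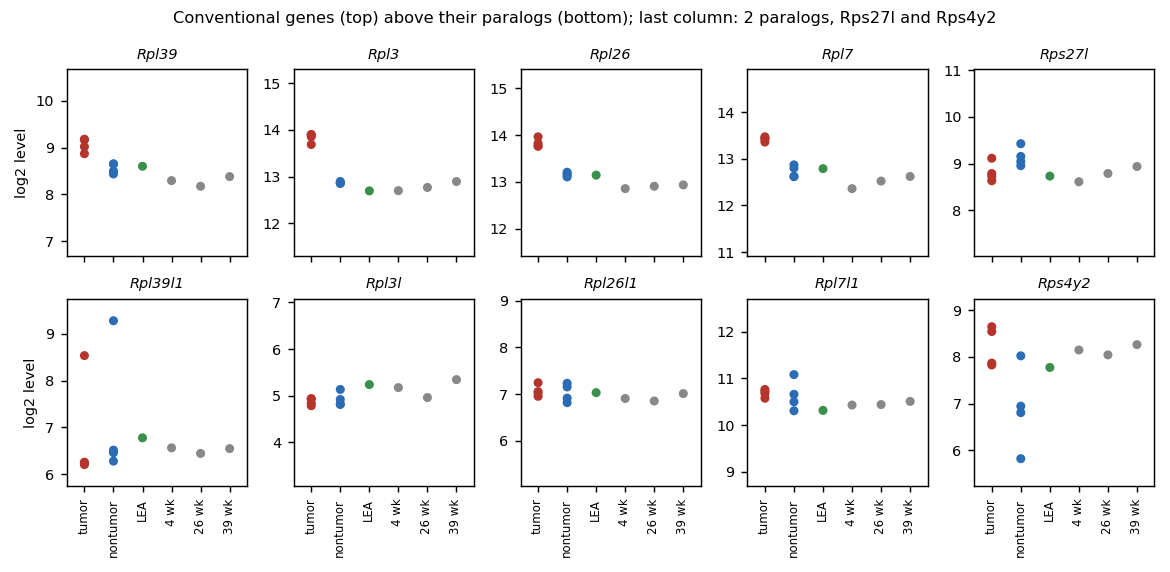
Log2 levels on the 12 arrays (points) by group for Rpl39, Rpl3, Rpl26 and Rpl7 in the top row, each above its paralog, with Rps27l and Rps4y2 in the last column. All panels span 4 log2 units. The conventional genes show 4 tumor points above all others, while the paralogs overlap between tumor and nontumor, with single high arrays in Rpl39l1. Rpl3l lies at the absent-RNA level, and Rpl39l1 and Rpl26l1 are dim, with means of 6.84 and 7.02 over the 12 arrays. The uncalled conventional gene Rps13 is about as dim (6.66), and Rpl7l1 (10.58) and Rps27l (8.91) are brighter. The part of signal level in this contrast was not tested.

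The 3 conventional genes that were not called had dim probe sets. Rpl28 lay between 4.70 and 4.92 in tumor, against 4.74 to 4.88 in nontumor liver, at or below the absent-RNA maximum on all 12 arrays. Rpl30 lay between 5.57 and 5.72 in tumor, against 5.50 to 5.68 in nontumor liver, at or below that maximum on 9 arrays, with a difference of 0.10 (adjusted p = 0.246). Rps13 lay between 6.55 and 6.79 in tumor, against 6.70 to 6.76 in nontumor liver, with a difference of -0.08 (adjusted p = 0.37). These probe sets were at most slightly above background. All 3 symbols also stood on probe sets that list several symbols, and each of those was higher in tumor: the one listing Rpl28 by 0.71, the 2 listing Rpl30 by 0.69 and 0.90, and the one listing Rps13 by 0.77. They were not assigned to a single gene.

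Where a gene had further probe sets, they did not always give the same answer. For Rpsa the other probe sets rose by 1.04 and 1.17, and for Rpl3 the second rose by 0.51. The second of Rps24 was called higher in tumor, but no size is given for it because 3 of its 4 nontumor arrays lay at or below the absent-RNA maximum. The second probe sets of Rpl7 (0.14, adjusted p = 0.292) and Rpl14 (-0.01, adjusted p = 0.881) were not called, although the ones used were. For the paralog Rpl7l1 neither probe set was called, and the second differed by 0.35 (adjusted p = 0.122). Apart from these, 36 probe sets listed several symbols with at least 1 of a ribosomal protein, and 34 of them were higher in tumor and 0 lower, with a median difference of 0.79.

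The other genes of the translation machinery were counted from lists drawn up for this purpose. Of 13 measured elongation and initiation factors and further mRNAs known to carry a TOP tract, all 13 rose in tumor, with a median of 0.90. Hnrnpa1, an RNA-binding splicing factor, rose by 1.46, Nap1l1, a histone chaperone, by 1.24, and Eif3f, a subunit of the factor that prepares the small subunit for initiation, by 1.06. Eef1a1, which delivers aminoacyl-tRNA to the ribosome, rose by 0.27 (adjusted p = 0.026), the least of the 13.

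Of 29 initiation factors, 20 rose and 0 fell, with a median of 0.51. Eif5a2 had a mean of 6.54 ± 0.10 in tumor and 5.14 ± 0.10 in nontumor liver (SD, n = 4 each), with all 4 nontumor arrays at or below the absent-RNA maximum. Eif1ax, which helps select the start codon, rose by 1.01 and Eif4h, a partner of the mRNA helicase, by 0.94.

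Ribosome biogenesis genes were mixed: 41 of 70 rose and 3 fell, with a median of 0.33. Rrp1b had a mean of 11.04 ± 0.27 in tumor and 8.90 ± 0.15 in nontumor liver (SD, n = 4 each), a rise of 2.14, Rrp15 rose by 1.81 and Fbl, the methyltransferase of ribosomal RNA, by 1.18. Rcl1, an endonuclease of small-subunit RNA processing in yeast, fell by 2.04, while Imp4 fell by 0.40. Noc3l was called lower at levels at or below the absent-RNA maximum in both groups. The number risen in this list depended on scaling, with 21 rises and 13 falls after quantile normalization was run again. Ncl, or nucleolin, a major nucleolar protein, rose by 1.14, and Npm1 had no single-symbol probe set.

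Of 14 genes of RNA polymerase I, which makes the ribosomal RNA precursor, 9 rose and 0 fell, with a median of 0.44. Ubtf, its promoter-binding factor, rose by 0.81, Polr1d by 0.75 and the termination factor Ttf1 by 0.65. After quantile normalization was run again 5 rose and 1 fell, and with array medians subtracted 5 rose and 0 fell.

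The mitochondrial ribosome moved the other way: of its 73 genes, 6 rose and 40 fell, with a median of -0.27, and this stayed so under both other scalings (58 and 47 falls). Mrps28 fell by 1.02, Mrpl40 by 0.94 and Mrps18b by 0.93. Mrps6 was the largest exception with a rise of 1.18, beside Mrpl48 at 0.52 and Mrpl23 at 0.47. The median level of the 73 genes was 9.68, 9.62, 9.55 and 9.73 on the tumor arrays, against 10.02, 10.12, 9.95 and 9.94 on the nontumor arrays, so the groups were apart in the direction opposite to the cytosolic genes.

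**Figure D3:**
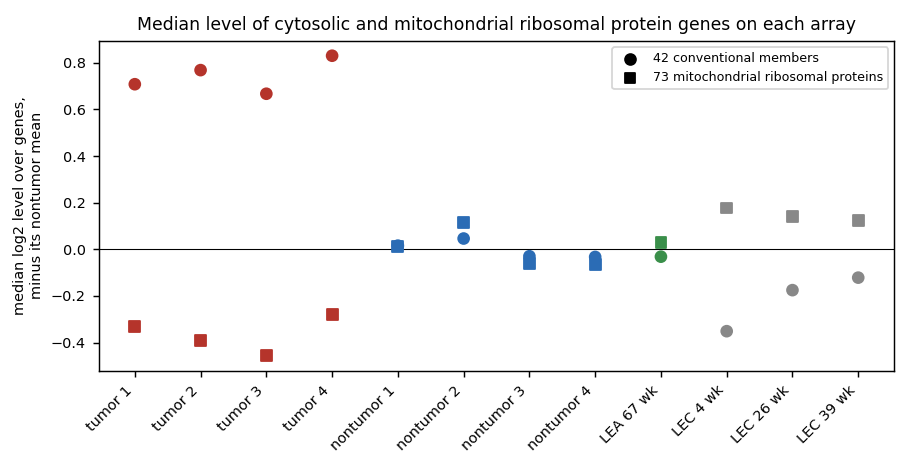
The median log2 level over the 42 conventional cytosolic genes (circles) and over 73 mitochondrial ribosomal protein genes (squares) on each of the 12 arrays, each minus its mean over the 4 LEC nontumor arrays. On the 4 tumor arrays the cytosolic median lies above all other arrays and the mitochondrial median below all others.

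**Figure D4:**
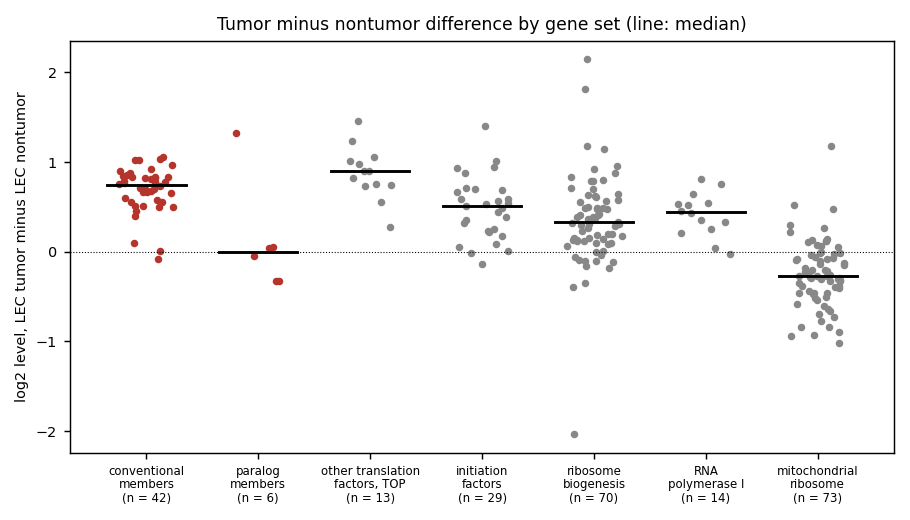
Tumor minus nontumor difference in log2 level for each gene (points) and the median (line) in the 2 sets of cytosolic ribosomal protein genes and in 5 other gene lists. The medians are 0.74 for conventional genes, -0.00 for paralogs, 0.90 for other factors and TOP mRNAs, 0.51 for initiation factors, 0.33 for biogenesis, 0.44 for polymerase I and -0.27 for the mitochondrial ribosome.

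Of 21 listed regulators, among them Myc-family factors, mTOR pathway genes and kinase genes named for ribosomal protein S6, 13 rose and 1 fell. After quantile normalization was run again 10 rose and 4 fell, and with array medians subtracted 12 rose and 4 fell. Mycl, a Myc-family transcription factor, had a mean of 10.19 ± 0.65 in tumor and 7.80 ± 0.20 in nontumor liver (SD, n = 4 each), a rise of 2.38. Myc, which raises transcription of ribosomal protein and ribosomal RNA genes, rose by 0.66 (adjusted p = 0.0054). The kinase gene Rps6ka2 rose by 2.34, and its name, like that of Rps6ka5, does not place it among the S6 kinases downstream of mTOR. Rps6ka5 was called higher with 3 of its 4 nontumor arrays at or below the absent-RNA maximum, and Zbtb33, the factor that binds the palindrome counted above, fell by 0.38 (adjusted p = 0.0194).

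Cell type markers moved with the same contrast. Of 9 hepatocyte markers 0 rose and 7 fell (median -1.90), of 5 bile duct markers 5 rose (median 4.14), of 9 matrix-cell markers 9 rose (median 1.95) and of 11 lymphocyte markers 6 rose and 1 fell (median 0.99). The median level of the hepatocyte markers was 9.80 to 13.20 on the tumor arrays, against 13.44 to 13.83 on the nontumor arrays, that of the bile duct markers 11.15 to 11.79 against 7.24 to 7.83, and that of the matrix markers 10.27 to 11.32 against 8.11 to 8.81. No marker of the hepatocyte or bile duct lists was at or below the absent-RNA maximum, and the matrix marker Lum was so on 7 arrays. Macrophage markers were mixed (3 of 8 rose, 2 fell), as were endothelial markers (2 of 5 rose, 3 fell), and of 4 red blood cell markers 3 fell. Proliferation genes rose in 10 of 11 (median 1.30). The part of these cell types and of proliferation in the ribosomal protein difference was not tested. Across the tumor arrays the hepatocyte median was lowest on the fourth (9.80) and highest on the third (13.20), where the conventional ribosomal median was highest (13.56) and lowest (13.40).

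The comparison of LEC nontumor liver with LEA liver at 67 weeks sets the diseased strain against its control at 1 age. It shares the nontumor arrays with the one above, and the spread of the single LEA array was taken from the replicated groups. Of the 48 genes 0 were called in either direction, as 0.19% of all probe sets were called higher and 0.354% lower. At an unadjusted p under 0.05 there were 3 of 48 (6.25%, against 12.2% of all probe sets), which were Rpl12, Rpl30 and Rpl4. Differences ran from -0.87 for Rps4y2 to 0.41 for Rps27l, and 32 were positive, against 13847 of all 31042 probe sets. The median was 0.03 (0.15 after quantile normalization was run again), and the lowest adjusted p was 0.357 (limma).

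Some genes straddled the LEA value in nontumor liver, and in others all 4 nontumor arrays lay to one side of it. Rps3 had nontumor levels of 12.73, 12.71, 12.60 and 12.48, against 12.73 in LEA liver, and Rpl11 had 12.73, 12.89, 12.72 and 12.65, against 12.74. Rps15 had nontumor levels of 12.35, 12.42, 12.34 and 12.36, against 12.16 in LEA liver, so all 4 were higher, and this difference of 0.21 did not pass the test (adjusted p = 0.457). Rpl19, an early-assembling protein of the large subunit, had nontumor levels of 12.89, 13.06, 13.05 and 13.01, against 12.77, a difference of 0.23 (adjusted p = 0.449). None of the genes in the other translation lists was called either, whereas 2 of 9 matrix markers were higher in LEC nontumor liver.

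Within the LEC strain the ages showed a small ordered difference that did not pass the test. Copper builds up and hepatitis follows with age in this strain. The only LEA array is at 67 weeks, so age and disease course cannot be told apart. Nontumor liver at 67 weeks exceeded the 4 week liver in 45 of 48 genes, against 14587 of all 31042 probe sets. The median difference was 0.32, against -0.02 over all probe sets. However, 0 genes were called, as 0.174% of all probe sets were called higher and 0.203% lower. At an unadjusted p under 0.05 there were 32 of 48, against 13.3% of all probe sets, and the lowest adjusted p was 0.0564 for Rpl19 (limma). The 4 week array is a single pool, and a deviation of that array would move all the genes together.

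The 4 week value was the lowest of the 4 ages in 39 of 48 genes, against 26.6% of all probe sets, and the 67 week mean was the highest in 39, against 23.0%. In 28 genes the 4 values ascended with age, against 4.18% of all probe sets. Among all 14217 genes these 3 counts were 4838, 2906 and 684. The median of the conventional genes stood 0.10, 0.20 and 0.33 above the 4 week level at 26, 39 and 67 weeks, and 0 of 48 genes passed 2-fold at 26 or at 39 weeks, as 2.27% and 2.24% of all probe sets did. The arrays at 26 and 39 weeks are those with low Xist, and whether this bears on their levels was not tested.

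Rpl19 had levels of 12.36, 12.74 and 12.95 at 4, 26 and 39 weeks, and of 12.89, 13.06, 13.05 and 13.01 at 67 weeks. Its difference between 67 and 4 weeks was 0.64 ± 0.11 (SE). Rpl13a had levels of 11.39, 11.64 and 11.66 at 4, 26 and 39 weeks, and of 12.06, 12.12, 12.04 and 12.05 at 67 weeks, a difference of 0.67 ± 0.14 (SE, adjusted p = 0.0887). Both genes ascended over the 4 ages, and all their 67 week values but 1 lay above every earlier value.

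Rpl5 had 12.54, 12.65 and 12.75 at 4, 26 and 39 weeks, and nontumor values of 12.83 to 13.04 at 67 weeks. Rps6 likewise had 12.90, 13.01 and 13.12, and nontumor values of 13.20 to 13.40 at 67 weeks. Rpl3 did not follow this order, with 12.70, 12.77 and 12.89, and nontumor values of 12.85 to 12.89 at 67 weeks. Of the conventional genes 41 of 42 were higher at 67 than at 4 weeks, and Rps4y2, at -1.25, and Rpl3l, at -0.25, were the paralogs below 0.

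Among the lists, the other factors and TOP mRNAs had a median difference of 0.29 between 67 and 4 weeks, with 11 of 13 positive. Over all probe sets 14587 of 31042 were positive. Initiation factors had a median of -0.02 with 12 of 29 positive, ribosome biogenesis genes 0.05 with 40 of 70 positive, and the mitochondrial ribosome -0.15 with 15 of 73 positive. No gene of these 4 lists was called. Macrophage markers were positive in 8 of 8, with a median of 0.77 and 0 called, hepatocyte markers had a median of -0.01 and proliferation genes one of -0.11. The part of these markers in the age difference was not tested.

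**Figure D5:**
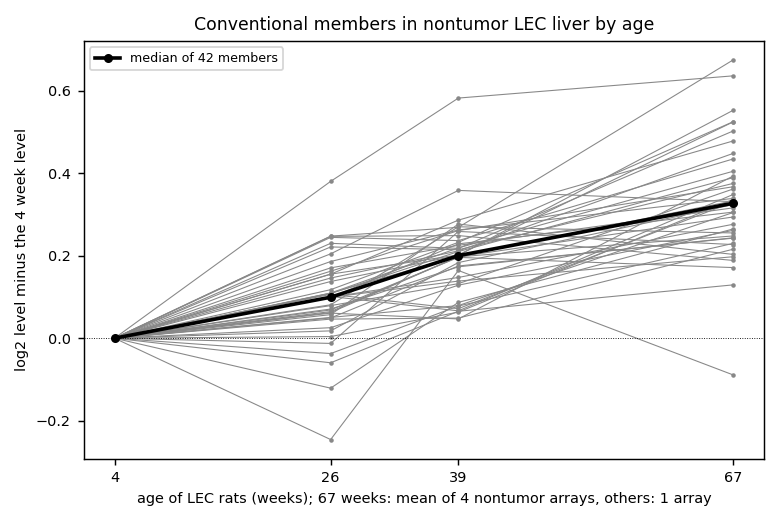
Log2 level minus the 4 week level (y axis) against the age of LEC rats in weeks (x axis) for the 42 conventional genes (thin lines) and their median (thick line), with 1 array at 4, 26 and 39 weeks and the mean of 4 nontumor arrays at 67 weeks. The median reaches 0.10, 0.20 and 0.33.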

How the data were processed

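Total RNA was labelled with biotin and hybridized to 12 arrays, per the labels' protocols. The log2 values the authors deposited come from RMA, per the submitters' processing notes, which name R 2.6.1; whether all arrays were normalized together is not given in the sources used here, and these values were used as they stand. Precision is limited by the number of arrays. Groups follow the sample titles.

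Of 31099 probe sets, 57 controls were left out and 31042 tested. The annotation gave 20826 a single symbol, 436 several and 9780 none. By Entrez identifier 20758 symbols were matched to RefSeq (GRCr8), whose symbol was then used, whether or not it differed. Group means over 12 arrays were fitted with limma 3.58.1 (lmFit, eBayes) in R 4.3.3, with 6 residual and 2.84 prior degrees of freedom, two-sided p-values and Benjamini-Hochberg adjustment over all tested probe sets (threshold 0.05); the spread of lone arrays was taken from the replicated groups. The arrays at 26 and 39 weeks were not tested. The test was run on simulated arrays with the residual spread of these arrays, with 50 probe sets changed by each of several sizes. Of 50 changes of 0.5 log2 units it recovered 21 for tumor against nontumor, 2 against LEA and 2 against 4 weeks. Of 50 changes of 1 log2 unit it recovered 38, 20 and 22. By these counts small differences from the lone arrays would mostly be missed. Most simulated probe sets were unchanged, whereas in tumor against nontumor liver 31.7% were higher and 32.2% lower. The changed ones were drawn from all probe sets (median SD 0.12 in tumor, 0.16 in nontumor liver), against 0.07 and 0.05 for the conventional genes. The 21 and 38 therefore do not give the share of such changes found in the data. Figures used matplotlib 3.10.9 in Python 3.11.15.

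Members and lists were chosen with earlier results of these data known. Named members were the 10 largest non-overlapping rises, the 5 smallest differences and a set chosen by role; from each list up to 3 rises and 3 falls were named, with Myc, Mdm2, Cdkn1a, Npm1, Ncl and Eef1a1 always. Rpl39l1, Rps4y2, Rps29, Rpl19, Rpl30, Rpl12, Rpl4 and Rpl26, the promoter motifs and their window, the count above all 8 other arrays and the age orders were chosen after their values were seen. Alternatives were quantile normalization again, array medians subtracted, dim probe sets left out, a 1 log2 unit minimum, a trended robust prior, array weights, gene means, plain probe set identifiers, symbols as printed, the 8 arrays alone, the title number as a block, and each replicate left out. Same-numbered tumor and nontumor arrays deviated together with correlations of 0.05, 0.14, -0.08 and 0.14, so the numbers were not taken as pairs.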

Additional observations from a re-analysis of the deposited data

Results flagged for a closer look

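Of 98 groups of 4 arrays examined (48 genes and the median of all of them, in tumor and in nontumor liver), 4 held an array whose gap to the nearest other exceeded Dixon's critical value for 4 samples; chance gives about 1 in 20. Rpl39l1 stood at 8.54 on the fourth tumor array, with the next tumor value at 6.25, and at 9.28 on the first nontumor array, with the next nontumor value at 6.51. Rpl27a, a protein of the large subunit, stood at 13.97 on the fourth tumor array, with the next at 13.89. Rps15 stood at 13.48 on the same array, with the next at 13.37.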

How the results depend on the processing

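The precision of all values is limited by 4 arrays a group and by lone pools at the other ages and in LEA liver. Of 430 values of the named genes under the alternatives, 406 kept their direction and side of the threshold. With quantile normalization run again, the median tumor minus nontumor difference was 0.59, 1 gene was lower in tumor (Rps27l, -0.62), Rpl39 was lost, and the median against LEA liver was 0.15. With array medians subtracted, where the median of all probe sets was -0.14 in place of -0.04 and the calls were 8524 higher and 13052 lower in place of 9834 and 10011, the member median was 0.60 and 2 genes were lower (Rps27l, -0.43, and Rps13, -0.18, adjusted p = 0.0498). With array weights 1 was lower in tumor (Rps27l, -0.40) and 4 were higher at 67 than at 4 weeks, against 1 with a trended robust prior and 1 with gene means. Requiring 1 log2 unit left 5 genes higher in tumor. Leaving out single replicates gave 39 to 40 higher and 0 to 1 lower in tumor (1 without the third tumor or the fourth nontumor array), a median of 0.67 to 0.74, and medians of 0.02 to 0.05 against LEA liver and 0.29 to 0.33 against 4 weeks, with 0 to 1 higher at 67 weeks (1 without the first nontumor array). The cause of these changes was not tested. Some uncalled genes changed sign. Rpl26l1 gave -0.063 with medians subtracted and -0.031 to 0.11 without single arrays, and Rpl28 gave -0.099 with medians subtracted, -0.036 with array weights and -0.032 to 0.041 without single arrays. Rpl3l gave 0.10 with quantile normalization run again and -0.084 to 0.023 without single arrays, and Rpl39l1 gave -0.90 to 0.39 without single arrays. Rpl7l1 gave -0.17 with quantile normalization run again, -0.054 with medians subtracted and -0.061 to 0.20 without single arrays. With the title number as a replicate block, 40 members were higher and 0 lower in tumor, and over all probe sets 9698 were higher and 9259 lower. Leaving out the arrays at 26 and 39 weeks, an alternative chosen after seeing the data, gave the same values by construction, since these lone arrays enter no tested comparison and add nothing to the estimate of the spread.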
